A study of Mus musculus with 6 samples.

Results

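The integrated stress response was followed in MICT1 KO brown adipocytes through 10 genes, namely Atf4, Atf5, Ddit3, Trib3, Ppp1r15a, Asns, Phgdh, Psat1, Mthfd2 and Chac1. They were chosen by name as the Atf4 axis and its serine and asparagine synthesis enzymes. The choice was made with earlier results of these data known. All 10 were present among the 13283 genes of the deposited table, and all 10 were among the 12507 genes that passed the filter on low values. RNA-seq was available from 3 control and 3 knockout libraries of an immortalized mouse BAT preadipocyte line that stably expresses Cas9. Control cells (genotype WT in the labels) carried a scrambled sgRNA and are called Scr, and cells labelled MICT1-CRISPR KO carried sgRNA against MICT1, a microprotein of brown fat. Both groups were put through adipogenic differentiation and received 10 µM forskolin, which raises cAMP, for 6 h on day 6, so no library here shows either unstimulated or undifferentiated cells. The knockout cells were kept as pools rather than clones, and the labels do not say which pool a library came from. MICT1 expression was not analysed here, which leaves the labels unchecked on the targeted gene.

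In the integrated stress response, kinases that sense amino acid shortage, misfolded protein in the ER, double-stranded RNA or heme and mitochondrial stress phosphorylate the α subunit of the translation factor eIF2. General translation then slows while the mRNA of Atf4 is translated better, and ATF4 protein switches on genes for amino acid synthesis and uptake, tRNA charging and the stress factors Ddit3, Trib3 and Chac1. Ppp1r15a (GADD34) closes the loop by bringing a phosphatase back to eIF2α. In brown adipose tissue the response is best known as a reaction to mitochondrial dysfunction, where it accompanies the release of the hormones GDF15 and FGF21. Since ATF4 is set largely at translation, an mRNA level does not report its protein.

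MICT1 KO libraries held more mRNA for most of these genes, but not for all of them. Of the 10 genes, 8 rose, 1 fell (Chac1) and 1 did not pass the test (Trib3), where 28.5% of all genes tested rose, 28.3% fell and 56.9% passed in either direction at an adjusted p of 0.05 (limma, Benjamini-Hochberg over 12507 genes). In 8 of the 10 genes all 3 MICT1 KO values lay above all 3 Scr values, and in none did all 3 lie below. Over all genes tested the shares were 30.9% above and 31.2% below, together 62% without overlap. The median log2 fold change of the 10 genes was 0.44, against -0.0053 over all genes tested. The rises were modest, from 1.12-fold for Atf4 to 2.03-fold for Ppp1r15a, and the absolute log2 fold change of Ppp1r15a stood at the 86.0th percentile of all genes. With bulk RNA, a gene carried by fewer cells and a gene with less RNA per cell cannot be told apart.

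Scr replicate 3 bears on each of these values. It was the lowest of the 3 Scr libraries in 10 of the 10 genes, where 34.6% of all genes were lowest there. Its log2 value lay below the mean of the other Scr libraries by a median difference of -0.30 over the 10 genes (from -0.77 for Ddit3 to -0.13), against 0.0059 over all genes. Without this library 6 of the 10 genes rose and 2 fell, at a median log2 fold change of 0.36, where 26.2% of all genes rose and 25.3% fell. The genes that rose in both fits were Atf5, Ppp1r15a, Asns, Phgdh, Psat1 and Mthfd2, whereas Atf4 and Ddit3 no longer passed and Trib3 passed as lower. Estimated reads were 16.1 M in this library and 15.4 to 17.9 M over all 6 (M, mega), and the reason for its low values was not tested.

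Knockout cells also differed in their state of differentiation. All 10 adipocyte markers tested, of 12 listed, fell, where 28.3% of all genes tested fell. Their median log2 fold change was -3.37, and their summed value was 125383 to 149834 in Scr and 14882 to 21310 in the MICT1 KO libraries. The table lists only genes above 0 in every library, and the other 2 listed, Cidea and Prdm16, were not analysed here. Adipoq and Ucp1 were below 10 in each MICT1 KO library and passed the filter on low values only through Scr. Of 7 preadipocyte or fibroblast markers tested, 4 rose and 2 fell. These shares of 57.1% and 28.6% compare with 28.5% and 28.3% of all genes tested, so the falls were at the share of all genes. The falls numbered 1 without any one of Scr replicates 1 and 2 or KO replicates 1 and 2. Those that fell were Dlk1 (687 ± 35.0 in Scr to 63.9 ± 23.0 in MICT1 KO) and Pdgfra (2307 ± 123 to 2025 ± 265). The rises included Dcn (365 ± 75.3 to 9707 ± 133) and Col1a1 (17955 ± 585 to 30595 ± 2507). Summed values of the list were 30998 to 34307 in Scr and 52661 to 57675 in the MICT1 KO libraries. Of 4 macrophage markers tested, Cd14 alone rose, a share of 25.0% where 28.5% of all genes rose. Summed values of the macrophage list were 267 to 384 in Scr and 516 to 638 in the MICT1 KO libraries. Neither of 2 muscle markers passed the test. Of 4 endothelial markers listed, only Cdh5 was analysed here, with values between 5.93 and 12.1 in Scr and between 25.9 and 33.4 in the MICT1 KO libraries, and it passed the filter only through the latter. Their part in the results on the 10 genes was not tested.

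**Figure D1:**
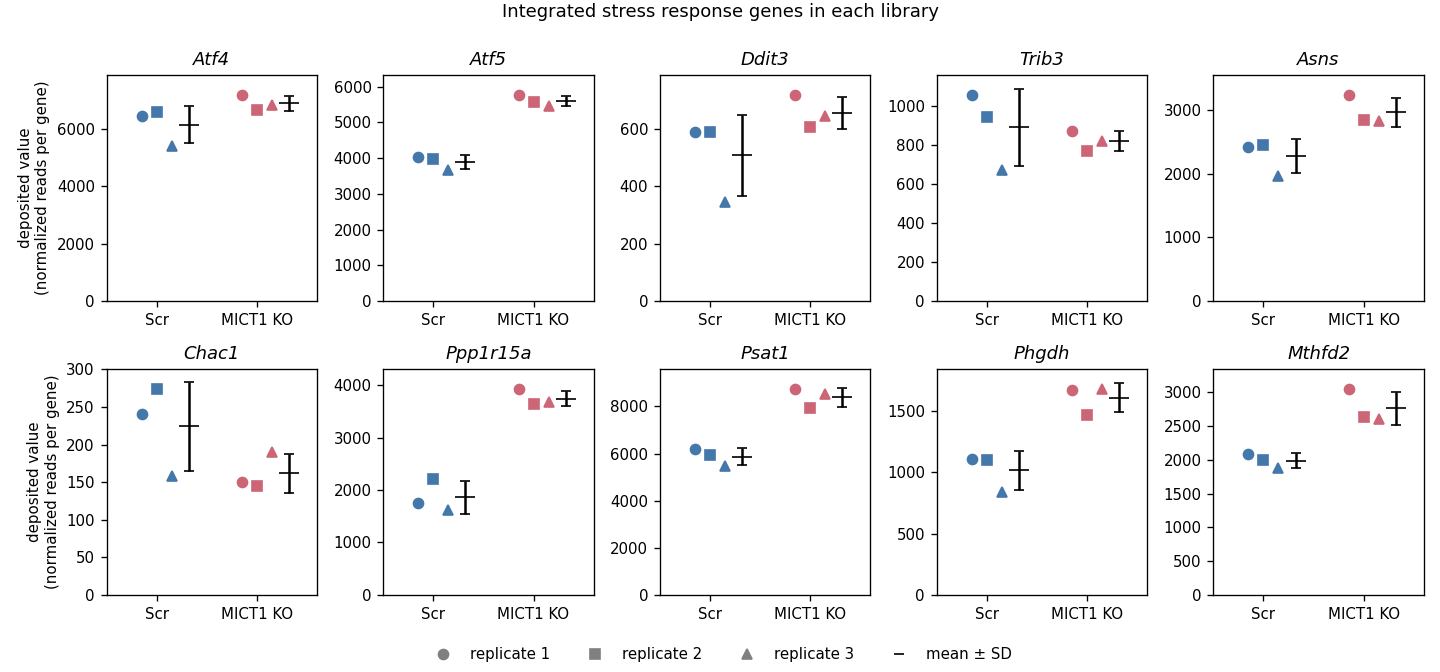
Deposited value (estimated reads over the library's size factor, linear axes from 0) of each of the 10 genes in the 3 Scr and 3 MICT1 KO libraries, with the mean and SD (n = 3) beside the points. Scr replicate 3 (blue triangle) is the lowest Scr point in every panel, and the MICT1 KO points of Ppp1r15a, from 3643 to 3919, lie above all 3 Scr points by the largest fold of the 10 genes (2.03-fold between the groups).

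The start regions of the genes were read from the RefSeq promoter table (GRCm38), which holds 12 windows of 300 bases for the 10 genes, from 250 bases before each start to 50 after it. They are shown because the 10 genes are grouped by a shared transcription factor and moved unequally. Each window was searched on both strands. The motifs were TGATGNAA, from the C/EBP-ATF response element, TGACGTCA, the cAMP response element, and the ER stress element. The first was found for Asns, Chac1 and Trib3, where 3.97% of the 32851 windows in the table hold it, and the second for Ppp1r15a, where 1.79% do. No window of the 10 genes held the ER stress element (0.119% of all windows). The stretches with a match are written in the direction of the gene, with the matched letters in capitals.
Ppp1r15a, chr7:45526269-45526388 (minus strand), bases -120 to -1: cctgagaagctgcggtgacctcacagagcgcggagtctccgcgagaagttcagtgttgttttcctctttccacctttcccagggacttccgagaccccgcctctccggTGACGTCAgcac
Asns, chr6:7693210-7693329 (minus strand), bases -120 to -1: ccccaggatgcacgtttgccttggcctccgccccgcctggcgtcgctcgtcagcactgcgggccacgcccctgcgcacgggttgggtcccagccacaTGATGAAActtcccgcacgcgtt
Chac1, chr2:119350992-119351111 (plus strand), bases -250 to -131: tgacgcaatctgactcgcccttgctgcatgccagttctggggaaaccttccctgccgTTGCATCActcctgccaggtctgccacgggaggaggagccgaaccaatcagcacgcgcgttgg
Trib3, chr2:152344028-152344057 (minus strand), bases 4 to 33 after the start: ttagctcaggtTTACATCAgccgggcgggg
The capitals begin at base -12 in Ppp1r15a, -23 in Asns, -193 in Chac1 and 15 in Trib3, and those of Chac1 and Trib3 match the motif on the opposite strand. A match is a string of letters and not a measured site. The genes with TGATGNAA in these windows include the only one that fell (Chac1), the one that did not pass (Trib3) and one that rose (Asns). The calls on Chac1 and Trib3 changed when single libraries were left out, so these categories are not firm.

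The values that follow are the authors' deposited estimates of reads, scaled to a common library size. Among the transcription factors, Atf4 (chromosome 15, 80255184 to 80257545) was read at 6456, 6570 and 5396 in Scr replicates 1 to 3 and 7160, 6652 and 6833 in the MICT1 KO replicates. Every MICT1 KO value was above every Scr value, but the lowest of them exceeded the highest Scr value only narrowly. The means were 6141 ± 647 and 6881 ± 257 (SD, n = 3 each), a log2 fold change of 0.17 (SE 0.065, 95% interval 0.033 to 0.31, adjusted p = 0.0326). The call on Atf4 was lost without Scr replicate 3 (0.079, adjusted p = 0.271), without KO replicate 1 (0.14, adjusted p = 0.0901) and without KO replicate 3 (0.17, adjusted p = 0.0638).

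Atf5, a relative of ATF4 that is itself translated better when eIF2α is phosphorylated and is known for the mitochondrial unfolded protein response, changed more clearly. It was read at 4036, 3983 and 3667 in Scr and 5757, 5578 and 5464 in the MICT1 KO libraries. The groups were far apart and tight, with means of 3895 ± 199 and 5599 ± 148, and the log2 fold change was 0.52 (SE 0.055, adjusted p = 6.38e-08). Atf5 lies on chromosome 7 (44812256 to 44816658) and overlaps Nup62 and Il4i1b in RefSeq, so reads from the shared stretch are uncertain unless the authors counted by strand, which is not stated.

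Ddit3 (CHOP), a factor that dimerizes with C/EBP proteins and is induced late in prolonged stress, was read at 590, 588 and 345 in Scr and 717, 608 and 644 in the MICT1 KO libraries. Scr replicate 3 stood well below the other 5 libraries, which lay between 588 and 717. The means were 508 ± 141 and 656 ± 55.6, with a log2 fold change of 0.41 (SE 0.15, 95% interval 0.11 to 0.71, adjusted p = 0.0214). Without Scr replicate 3 the log2 fold change was 0.15 (adjusted p = 0.208), and without KO replicate 1 it was 0.34 (adjusted p = 0.0700). Ddit3 overlaps Mbd6 and Mars1 on chromosome 10 (127290793 to 127296291), with the same uncertainty about shared reads.

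Ppp1r15a, the inducible regulatory subunit that directs protein phosphatase 1 to eIF2α, gave the largest change of the 10 genes. Its values stood at 1762, 2204 and 1612 in Scr and 3919, 3643 and 3671 in the MICT1 KO libraries, so that the lowest MICT1 KO library was far above the highest Scr library. The means were 1859 ± 308 and 3745 ± 152, a log2 fold change of 1.02 (SE 0.082, 95% interval 0.85 to 1.19, adjusted p = 1.08e-09). Leaving out any 1 library kept it between 0.93 and 1.15. The gene lies on chromosome 7 (45522917 to 45526268) and overlaps Tulp2, which was not among the genes tested. Ppp1r15b, the constitutive counterpart that brings the same phosphatase to eIF2α, had means of 4903 ± 161 and 4742 ± 74.3 and a log2 fold change of -0.05 (95% interval -0.16 to 0.062, adjusted p = 0.457).

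Trib3, a pseudokinase that binds ATF4 and dampens its activity, was read at 1055, 946 and 671 in Scr and 871, 771 and 819 in the MICT1 KO libraries. The 3 MICT1 KO values fell inside the Scr range, and the log2 fold change was -0.09 (SE 0.12, 95% interval -0.34 to 0.15, adjusted p = 0.508). This interval leaves room for a change in either direction. Without Scr replicate 3 the value was -0.29 (adjusted p = 0.0101), and without Scr replicate 1 it was 0.041 (adjusted p = 0.796), so 1 library decides its direction.

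Chac1 degrades glutathione and is one of the genes most closely tied to ATF4 activity in other systems. It was read at 241, 273 and 159 in Scr and at 150, 144 and 191 in the MICT1 KO libraries. Scr replicate 3 lay within the MICT1 KO range, so the groups overlapped. The means were 225 ± 59.2 and 162 ± 25.4, and the log2 fold change was -0.45 (SE 0.18, 95% interval -0.83 to -0.064, adjusted p = 0.0435). The value was -0.68 without Scr replicate 3 (adjusted p = 0.00251), but the call was lost without Scr replicate 1 (-0.38, adjusted p = 0.146), Scr replicate 2 (-0.29, adjusted p = 0.252), KO replicate 1 (-0.40, adjusted p = 0.101) or KO replicate 2 (-0.37, adjusted p = 0.134).

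The 4 amino acid and one-carbon enzymes among the 10 genes all rose, and none lost its call when any 1 library was left out. Phgdh, which takes 3-phosphoglycerate into the first step of serine synthesis, was read at 1108, 1104 and 836 in Scr and 1675, 1472 and 1678 in the MICT1 KO libraries. Its means of 1016 ± 156 and 1608 ± 118 gave a log2 fold change of 0.67 (SE 0.092, adjusted p = 2.63e-06). It was the largest rise of the 4, with 0.54 when Scr replicate 3 was left out.

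Psat1, the aminotransferase of the next step, was read at 6176, 5944 and 5461 in Scr and 8727, 7952 and 8519 in the MICT1 KO libraries. The groups were separated by a wide gap, with means of 5860 ± 365 and 8399 ± 401 and a log2 fold change of 0.52 (SE 0.057, adjusted p = 1.34e-07). Psph, the phosphatase that ends the pathway and is not one of the 10 genes, rose as well, from 645 ± 54.3 to 898 ± 31.1 (log2 fold change 0.48, adjusted p = 5.04e-05). All 3 enzymes of serine synthesis were therefore higher.

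Mthfd2, the mitochondrial folate enzyme that passes on the one-carbon unit of serine, was read at 2087, 2006 and 1873 in Scr and 3046, 2641 and 2605 in the MICT1 KO libraries. MICT1 KO replicate 1 was higher than the other 2, and all 3 were above Scr. The means were 1989 ± 108 and 2764 ± 245, a log2 fold change of 0.47 (SE 0.067, adjusted p = 4.52e-06). Asns, which makes asparagine from aspartate and glutamine, was read at 2426, 2458 and 1970 in Scr and 3238, 2853 and 2833 in the MICT1 KO libraries. Its means of 2285 ± 273 and 2975 ± 228 gave the smallest rise of the 4 enzymes (log2 fold change 0.38, SE 0.077, adjusted p = 0.000226), which was 0.28 without Scr replicate 3 (adjusted p = 0.00187).

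**Figure D2:**
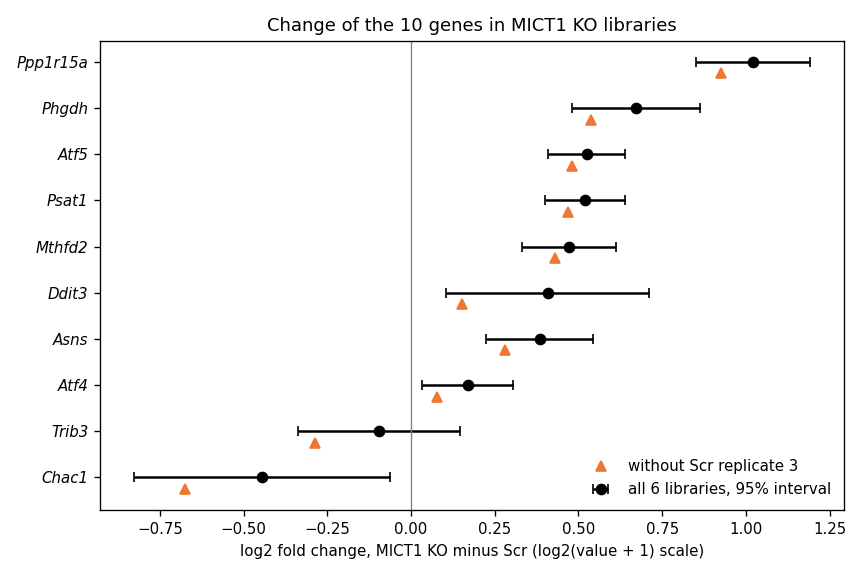
Log2 fold change of each of the 10 genes, MICT1 KO minus Scr on the log2(value + 1) scale, with the 95% interval from limma over all 6 libraries (black) and the value without Scr replicate 3 (orange triangles). Every triangle lies to the left of its black point, and the black points run from -0.45 for Chac1 to 1.02 for Ppp1r15a.

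To compare levels between genes, values were divided by exon length and by the library's sum, as RPKM. In Scr cells Atf4 had the highest level per length of the 10 genes, at 159 ± 16.9 RPKM, followed by Atf5 at 119 ± 6.77 and Psat1 at 84.2 ± 5.91, each separate from the next in all 3 libraries. By this length, Asns (51.0 ± 6.16), Ppp1r15a (38.6 ± 5.96) and Mthfd2 (34.9 ± 2.20) formed a middle group in which neighbours overlapped. Trib3 (25.6 ± 5.88), Phgdh (25.0 ± 3.88) and Ddit3 (18.1 ± 5.06) overlapped in turn, and Chac1 was the lowest at 8.37 ± 2.18 RPKM. The order in Scr also depended on the length used. By the longest transcript, Mthfd2 stood above Ppp1r15a without overlap (58.3 against 40.4 RPKM). The mean of Ddit3 was then above that of Trib3 (32.0 against 26.9 RPKM), with overlap.

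In MICT1 KO cells Atf4 was again the highest and Chac1 the lowest, while the order between them depended on the length used. With all exons, Atf5 reached 172 ± 3.51 RPKM and overlapped with Atf4 at 179 ± 5.71. Ppp1r15a, at 78.1 ± 2.68, stood above Asns at 66.6 ± 4.68, and Phgdh, at 39.6 ± 2.84, stood above Trib3 at 23.7 ± 1.32. Psat1 was at 121 ± 5.35, Mthfd2 at 48.6 ± 3.99, Ddit3 at 23.5 ± 1.85 and Chac1 at 6.05 ± 0.973 RPKM. With the longest transcript in place of all exons, Psat1 stood above Atf5 in both groups and overlapped with it. By that length Asns stayed above Ppp1r15a in MICT1 KO cells (90.4 against 81.7 RPKM). The mean of Phgdh was above that of Trib3 already in Scr (32.8 against 26.9 RPKM), but their libraries overlapped.

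Because Atf4 mRNA itself changed little, each of the other 9 genes was also set against Atf4 in the same library. This ratio was chosen after the values were seen, and it uses the 10 genes' own values again, so it is a description. Ppp1r15a had 27.3%, 33.6% and 29.9% of the Atf4 value in Scr and 54.7%, 54.8% and 53.7% in the MICT1 KO libraries. The MICT1 KO libraries were almost identical in this ratio, and their mean was 1.80 times that of Scr. Phgdh went from 16.5% ± 0.873 to 23.4% ± 1.22 of Atf4 and Asns from 37.2% ± 0.578 to 43.2% ± 1.90.

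Atf5, Psat1 and Mthfd2 also had a higher ratio in all 3 MICT1 KO libraries than in any Scr library, at 81.4% against 63.7%, 122% against 95.8% and 40.1% against 32.5%. Trib3 and Chac1 went the other way. Trib3 had 16.3%, 14.4% and 12.4% of the Atf4 value in Scr and between 11.6% and 12.2% in the MICT1 KO libraries. Chac1 had 3.74%, 4.16% and 2.94% in Scr and 2.09%, 2.17% and 2.79% in the MICT1 KO libraries. Only Ddit3 overlapped, at 8.16% ± 1.53 and 9.52% ± 0.446. In all, 6 of the 9 ratios were higher without overlap and 2 lower, where 18.6% of all genes were higher and 39.1% lower against Atf4 by the same rule.

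**Figure D3:**
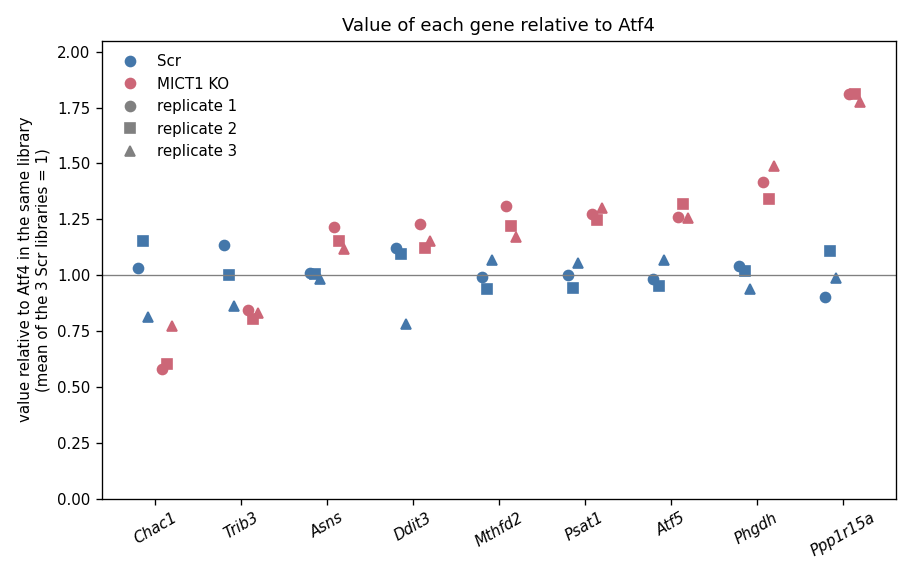
Value of each of the other 9 genes relative to Atf4 in the same library, scaled so that the mean of the 3 Scr libraries is 1 (linear axis from 0; blue Scr, red MICT1 KO, symbols for replicates). Ppp1r15a sits at about 1.80 in the 3 MICT1 KO libraries, while Chac1 and Trib3 lie below 1 there.

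Other genes listed as ATF4 targets moved in both directions. Of 37 tested, 16 rose, 11 fell (7 without Scr replicate 2) and 10 did not pass, at a median log2 fold change of 0.11. The share that rose was 43.2%, against 28.5% of all genes tested, and the share that fell was 29.7%, close to the 28.3% of all genes. The list was drawn up by name and includes genes that other factors also induce, among them Bbc3 and Gdf15. Its shares therefore do not measure ATF4 activity, and which factor moved each gene was not tested. The largest rises were those of Gdf15, a stress hormone (93.4 ± 33.5 to 611 ± 80.6, log2 fold change 2.76, adjusted p = 2.31e-10), Bbc3, the apoptosis inducer PUMA (174 ± 12.8 to 782 ± 72.4, log2 fold change 2.16, adjusted p = 7.57e-13), and Atf3, a stress-induced repressor. Atf3 was read at 579, 662 and 292 in Scr and at 2239, 1902 and 1798 in the MICT1 KO libraries, for a log2 fold change of 2.03 (adjusted p = 5.26e-09) that was 1.67 without Scr replicate 3.

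The largest falls in this list were those of Ndrg1 (log2 fold change -1.21, adjusted p = 6.44e-14), the lipoprotein receptor Vldlr (-0.81, adjusted p = 1.15e-06) and Fgf21. Fgf21, the metabolic hormone that ATF4 induces in several tissues, was at 150, 159 and 96.7 in Scr and at 77.2, 91.7 and 75.7 in the MICT1 KO libraries, with no overlap (log2 fold change -0.70, SE 0.21, adjusted p = 0.00841). Gdf15 and Fgf21, often read together as secreted products of the response, thus went in opposite directions. Cebpb, a partner of ATF4 on DNA that is also an early adipogenic factor, fell (-0.45, adjusted p = 4.42e-07), as did Ddit4, an inhibitor of mTORC1 (-0.61, adjusted p = 7.24e-09). Sesn2, another brake on mTORC1, had means of 1581 ± 147 and 1636 ± 50.0 (log2 fold change 0.05, 95% interval -0.095 to 0.20, adjusted p = 0.551).

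Enzymes that handle serine, glycine and one-carbon units beyond the 10 genes moved in both directions, at shares near those of all genes tested. Of 21 tested, Psph included, 6 rose, 7 fell and 8 did not pass, at a median log2 fold change of -0.039, and the shares of 28.6% and 33.3% compare with 28.5% and 28.3% over all genes. Aldh1l2, the mitochondrial formyltetrahydrofolate dehydrogenase, rose 2.19-fold from 4239 ± 426 to 9276 ± 425 (log2 fold change 1.13, adjusted p = 4.13e-12). Its cytosolic counterpart Aldh1l1 fell from 263 ± 55.3 to 34.9 ± 6.63 (log2 fold change -2.87, adjusted p = 3.49e-10). Gldc, the decarboxylase of the glycine cleavage system, rose at a low level from 30.9 ± 7.56 to 62.2 ± 13.1 (log2 fold change 0.99, adjusted p = 0.00761).

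Among the falls, Dld, the dehydrogenase that the glycine cleavage system shares with pyruvate dehydrogenase, was the next in size (-0.96, adjusted p = 1.70e-11), ahead of Sfxn1, the mitochondrial serine carrier (-0.69, adjusted p = 5.51e-08). Shmt2, which splits serine in mitochondria ahead of Mthfd2, rose slightly (log2 fold change 0.19, SE 0.053, adjusted p = 0.00477).

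The cytosolic aminoacyl-tRNA synthetases, many of which ATF4 induces together, moved in both directions. Of 20 tested, 3 rose, 5 fell and 12 did not pass, at a median log2 fold change of -0.091, and the shares were 15.0% and 25.0% against 28.5% and 28.3% over all genes. Hars rose most (1272 ± 99.7 to 1807 ± 46.8, log2 fold change 0.51, adjusted p = 2.22e-06), then Lars (0.34, adjusted p = 9.73e-05) and Nars (0.16, adjusted p = 0.0152). Cars fell most (890 ± 80.4 to 669 ± 30.8, log2 fold change -0.41, adjusted p = 0.00033), then Tars (-0.25, adjusted p = 0.000729) and Sars (-0.23, adjusted p = 0.00285). No synthetase among those named changed as much as 1.5-fold in either direction.

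The machinery upstream of ATF4 was measured through 23 genes for the eIF2 kinases, eIF2, its exchange factor eIF2B, the phosphatase subunits and related regulators, of which 5 rose, 7 fell and 11 did not pass (median log2 fold change -0.075), shares of 21.7% higher and 30.4% lower against 28.5% and 28.3% over all genes. The rises numbered 3 without any one of Scr replicate 1, Scr replicate 3 or KO replicate 2. Of the 4 kinases, Eif2ak2 (PKR, the sensor of double-stranded RNA) rose from 748 ± 61.1 to 960 ± 54.7 (log2 fold change 0.36, adjusted p = 0.000826). Eif2ak3 (PERK, the ER sensor) rose by a log2 fold change of 0.21 (adjusted p = 0.0441), and Eif2ak1 (HRI, the heme and mitochondrial sensor) had -0.20 (adjusted p = 0.0397), but neither passed without Scr replicate 3, with adjusted p of 0.221 and 0.169. Eif2ak4 (GCN2, the amino acid sensor) had -0.16 (95% interval -0.45 to 0.12, adjusted p = 0.327).

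Impact, an inhibitor of GCN2, rose most in this list (log2 fold change 0.44, adjusted p = 0.00125). Eif2b4 fell from 668 ± 75.8 to 444 ± 28.3 (-0.58, adjusted p = 4.08e-05), Eif2s2, the β subunit of eIF2, from 4441 ± 183 to 3177 ± 208 (-0.48, adjusted p = 5.99e-07), and Eif2b1 by a log2 fold change of -0.39 (adjusted p = 0.000221). The subunit that is phosphorylated, Eif2s1, had -0.13 (95% interval -0.25 to -0.012, adjusted p = 0.0561). Phosphorylation was not measured in these libraries.

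Genes of the IRE1 and ATF6 arms, which answer to misfolded protein in the ER beside PERK, had shares near those of all genes. Of 30 tested, 9 rose, 7 fell and 14 did not pass, at a median log2 fold change of 0.060, and 23.3% fell where 28.3% of all genes did. The rises included the ER chaperone Calr (8879 ± 810 to 16590 ± 952, log2 fold change 0.90, adjusted p = 1.24e-10) and the disulfide isomerases Pdia3 (0.63, adjusted p = 6.64e-09) and P4hb (0.46, adjusted p = 5.67e-07). Xbp1, the factor spliced by IRE1, fell from 3659 ± 496 to 1732 ± 50.1 (-1.07, adjusted p = 1.58e-10), and Derl1, of the ER export channel for degradation, fell by a similar amount (-0.94, adjusted p = 1.32e-11).

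Scr replicate 3 was low in this list too. Herpud1, an ER degradation factor, was read at 1463, 1519 and 682 in Scr and at 816, 681 and 742 in the MICT1 KO libraries. With all libraries its log2 fold change was -0.63 (adjusted p = 0.00664) and -1.001 without Scr replicate 3. Hspa5 (BiP), the chaperone that holds the ER sensors inactive, had 23292, 24687 and 16046 in Scr and 23228, 22959 and 22062 in the MICT1 KO libraries. The groups overlapped, with a log2 fold change of 0.12 (95% interval -0.092 to 0.33, adjusted p = 0.336), and the value was -0.076 without Scr replicate 3.

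Of 14 mitochondrial chaperones, proteases and their regulators, Atf5 included, 3 rose and 8 fell, which is 21.4% and 57.1% against 28.5% and 28.3% of all genes tested, at a median log2 fold change of -0.30. The falls were led by the inner membrane protease subunit Afg3l2 (-0.78, adjusted p = 1.15e-09), the unfoldase Clpx (-0.62, adjusted p = 2.45e-07) and the matrix protease Lonp1 (-0.60, adjusted p = 2.76e-09). Lonp1 was read at 7639 ± 33.4 in Scr and 5046 ± 158 in the MICT1 KO libraries. Besides Atf5, the rises were Spg7, the partner of Afg3l2 (0.74, adjusted p = 9.51e-08), and Htra2 (0.34, adjusted p = 0.00568). Atf5 mRNA and the chaperones Hspd1, Hspe1 and Hspa9 thus moved in opposite directions, the last 3 with log2 fold changes of -0.40, -0.30 and -0.37.

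The list of ATF, C/EBP, CREB3 and related factors includes genes whose proteins can pair or compete with ATF4 and CHOP. It also holds Nrf1 and Cebpz, which do not belong to these families. Among 19 tested, 5 rose and 5 fell (3 without Scr replicate 3), at a median log2 fold change of 0.053. The shares were 26.3% in each direction against 28.5% and 28.3% over all genes. Cebpz was among the falls (-0.22, adjusted p = 0.00867). Atf3 led the rises, ahead of Jdp2, a repressor related to ATF3 (155 ± 24.8 to 502 ± 54.9, log2 fold change 1.70, adjusted p = 1.16e-09), and Cebpd, an early adipogenic factor (850 ± 61.4 to 2245 ± 85.4, log2 fold change 1.40, adjusted p = 3.82e-13). Cebpa, a driver of terminal adipogenesis that is also on the adipocyte marker list, fell from 8019 ± 1353 to 991 ± 148 (log2 fold change -3.01, adjusted p = 4.61e-16). Atf7, a repressor of the ATF2 family, fell by a log2 fold change of -0.55 (adjusted p = 4.90e-08). Batf3 fell at a very low level (-0.90, adjusted p = 0.038) and did not pass without Scr replicate 3 (adjusted p = 0.0867).

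**Figure D4:**
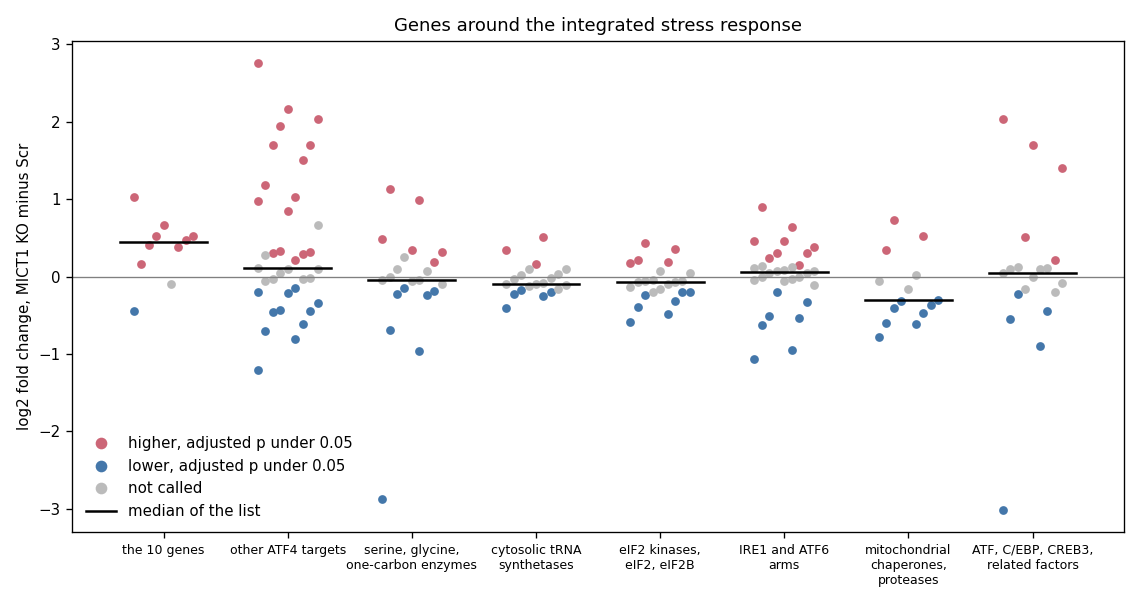
Log2 fold change (MICT1 KO minus Scr) of each gene tested in the 10 genes and in the 7 surrounding lists, with red for higher and blue for lower at an adjusted p under 0.05, grey for not called and a bar at the median of each list. The median is 0.44 for the 10 genes and between -0.30 and 0.11 for the other lists, and Atf5, Atf3, Jdp2 and a few others appear in more than 1 column.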

How the data were processed

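RNA-seq of 6 libraries was used, 3 Scr and 3 MICT1 KO, grouped by the sample labels. The authors deposited a normalized signal for each gene, taken from the values themselves as estimated reads over a library size factor of 0.949 to 1.08. Of the values under 20, 88.8% to 90.3% were whole multiples of the library's step within a tolerance of 0.01, so whole reads were not recovered and no count test was run. Reads were aligned to mm10/GRCm38 with Partek per the methods, and the submitters' processing notes also list STAR and DESeq2. The methods name a stranded total RNA kit, whereas the labels name only library construction by a sequencing company. The gene annotation and the use of strand in counting are not given in the sources used here. Estimated depth was 15.4 to 17.9 M reads per library (M, mega), and the table lists only genes above 0 in every library.

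The 12507 genes that reached a value of 10 in 3 or more libraries were tested on log2(value + 1) with limma-trend (limma 3.58.1, R 4.3.3), two-sided, with Benjamini-Hochberg adjustment over all of them and a threshold of 0.05. Fold changes are on the log2(value + 1) scale, which understates those of low genes. The functions were tested on simulated data. RPKM used the exon union of GENCODE vM21 and the library's sum of values. Positions and promoters came from RefSeq (GRCm38). The genes, lists and tests were chosen with earlier results of these data known, so the lists are described by counts and medians with no test of their own. Genes named from a list were its 3 largest rises and 3 largest falls past the threshold and a fixed set of central genes. Hspd1, Hspe1 and Hspa9 were named after their values were seen. The smallest p of an exact test between 3 and 3 libraries is 0.1. Calls on single genes therefore use limma's shared estimate of the spread, and p-values cover these cultures of one line only. Alternatives were other pseudocounts, filters and scalings, limma without the trend, the replicate number as a block, and each library left out in turn.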

Additional observations from a re-analysis of the deposited data

How the results depend on the processing

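Atf5, Ppp1r15a, Asns, Phgdh, Psat1 and Mthfd2 kept their direction and their call under all 14 alternatives run. Without the intensity trend, Atf4 (0.17, adjusted p = 0.184), Ddit3 (0.41, adjusted p = 0.182) and Chac1 (-0.45, adjusted p = 0.152) no longer passed. Chac1 also missed the threshold with libraries scaled to equal totals (-0.44, adjusted p = 0.0513) or equal upper quartiles (-0.41, adjusted p = 0.0685). Leaving out each library in turn gave log2 fold changes of 0.079 to 0.22 for Atf4 (adjusted p 0.0186 to 0.271), 0.15 to 0.54 for Ddit3 (adjusted p 0.0073 to 0.208), -0.29 to 0.041 for Trib3 (adjusted p 0.0101 to 0.836) and -0.68 to -0.29 for Chac1 (adjusted p 0.00251 to 0.252). Trib3 reversed to 0.041 without Scr replicate 1. The cause of these changes was not tested. Over all genes, 3269 to 3334 were higher and 3114 to 3344 lower in these fits.

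Replicate numbers are shared between the groups, but nothing in the labels ties equal numbers to a shared culture or day, and the deviations of equally numbered libraries correlated at -0.024, -0.016 and 0.064 across genes. With the replicate number as a block, 3543 genes were higher and 3512 lower, against 3569 and 3544 without it, and no call on the 10 genes changed. No scaling moved the median of all genes by more than 0.1 on the log2 scale. Low values limit Chac1, Fgf21, Gldc and Batf3 in both groups. They limit Gdf15, Bbc3 and Jdp2 in Scr, and Aldh1l1, Dlk1, Adipoq and Ucp1 in the MICT1 KO libraries. They also limit the marker lists other than the adipocyte and fibroblast ones, and 3 libraries per group limit all single genes.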

Other observations

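The 10 genes lie on 7 chromosomes, and the genes around them had medians near 0. The median log2 fold change of the tested genes within 2 Mb of each of the 10 genes lay between -0.14 (around Asns, over 9 genes) and 0.071 (around Mthfd2, over 38 genes). Around Atf4 it was -0.029 over 72 genes, of which 21 rose and 24 fell, on a chromosome with a median of -0.082. Ppp1r15a and Atf5 lie within 2 Mb of each other on chromosome 7, so their neighbourhoods overlap and are not separate observations. The median around them was 0.064 over 87 genes in each case.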
